A study of Mus musculus with 8 samples.

Results

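The clustered protocadherin genes were described in the hippocampus of 8 male mice. They were chosen as protein-coding genes whose symbol begins with Pcdha, Pcdhb or Pcdhg and that had at least 10 counts summed over all libraries, which gave 59 of the 40659 genes listed. Of these, 15 belonged to the alpha cluster, 22 to the beta cluster and 22 to the gamma cluster, all on the plus strand of chromosome 18 (GRCm39), from Pcdha1 at 37063237 to the end of Pcdhgc5 at 37975014. The study injected wild-type C57BL/6JRj males at postnatal week 7 to 8 in the dorsal and ventral hippocampus with a recombinant adeno-associated virus. The hp708 virus carried a hairpin that yields the microRNA miR-708-5p, placed in the 3'UTR of a green fluorescent protein transcribed from the human synapsin promoter, which is active in neurons, and the hpCTL virus carried a control hairpin. Tissue was taken 4 weeks after surgery, at an age labelled as week 12 to 13, and polyA-RNA of whole hippocampi was sequenced in 4 hpCTL and 4 hp708 mice. A bulk hippocampus mixes infected and uninfected neurons with glia, so that fewer cells of a type and less RNA per cell cannot be told apart, and whether miR-708-5p was raised in these libraries was not analysed here.

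Clustered protocadherins are cadherin-like membrane proteins that neurons use to recognize their own branches and to keep them apart. Each neuron switches on its own combination of members, mostly through random choice of one promoter among many, for which the insulator protein CTCF and cohesin bring a distant enhancer to the chosen promoter. In the alpha and gamma clusters each member has its own large 5' exon, the variable exon, which encodes the extracellular part, the membrane span and a short cytoplasmic stretch, and is spliced to 3 constant exons that encode a common cytoplasmic end and carry the 3'UTR. Beta members lack constant exons and stand alone. The last members of the alpha and gamma clusters, Pcdhac1, Pcdhac2, Pcdhgc3, Pcdhgc4 and Pcdhgc5, are the C-types, which are expressed more broadly across neurons than the alternate members.

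The microRNA carried by the virus is shown because its pairing with the 3'UTRs of the clusters is part of the comparison. Its mature sequence from RefSeq is given 5′ to 3′, with the seed (bases 2 to 8) in capitals.
miR-708-5p: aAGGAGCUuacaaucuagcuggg
It is 23 bases long, and its gene lies on the plus strand of chromosome 7 (GRCm39), from 95898631 to 95898739. A match to the seed, AGCTCCT, or to its last 6 letters followed by A, GCTCCTA, was sought on the sense strand in the longest annotated 3'UTR of each gene. All 22 gamma genes held 1 match of each kind, both in sequence that the cluster shares, and none of the 14 alpha genes that end in the alpha constant exons held any. Of the 22 beta genes 3 held a match, Pcdhb11 and Pcdhb19 to the seed and Pcdhb21 to the shifted form. Among the 14950 tested protein-coding genes with a 3'UTR, 36.0% held at least 1. The matches are letters in annotated windows and were not tested as sites.

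Some facts of the whole series bear on the members. The total count per library was between 22606824 and 28462428. Listed counts of the 59 members took 1.18% to 1.30% of it. The library labelled hp708 replicate 1 comes from an animal that the study's source data for a qPCR experiment list as hpCTL, so results are also given without it. Markers of CA1, CA3 and dentate granule neurons were detected in all libraries. Neuronal markers (6 genes) had a mean log2 CPM of 8.88 to 9.15 in every library, with overlapping groups. Markers of the subiculum (5 genes) averaged 2.45 to 3.13 in hpCTL and 1.88 to 2.97 in hp708 on the log2 CPM scale, and those of the choroid plexus (5 genes) ranged from 1.98 to 6.09 in hpCTL and from 2.87 to 6.65 in hp708, and no list had a marker at 0 in all libraries. The part of these cell types in the members' values was not tested.

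The listed counts of the alpha and gamma members were close to 1 measurement per cluster. In each library the 14 alpha genes lay between the count of Pcdha8 and that of Pcdhac2, which was 1.12 to 1.28 times higher. The 22 gamma genes lay between Pcdhgb8 and Pcdhgc5, which was 1.12 to 1.22 times higher. The alpha constant exons span 59, 89 and 2712 bases and belong to all 14 alpha genes, and the gamma constant exons of 59, 89 and 1968 bases belong to all 22 gamma genes, and from the near-equal counts a read in them appears to have been listed for every gene of its cluster. This is an inference from the values, as the overlap setting of the counting is not stated, and the own-read values given for both clusters rest on it. If each such read is counted once, the members took 0.0944% to 0.109% of the total count. Pcdha8 and Pcdhgb8 were the lowest of their cluster in all 8 libraries, and their counts are used here as the level of the shared exons, an upper bound that includes any reads in their own variable exons.

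**Figure D1:**
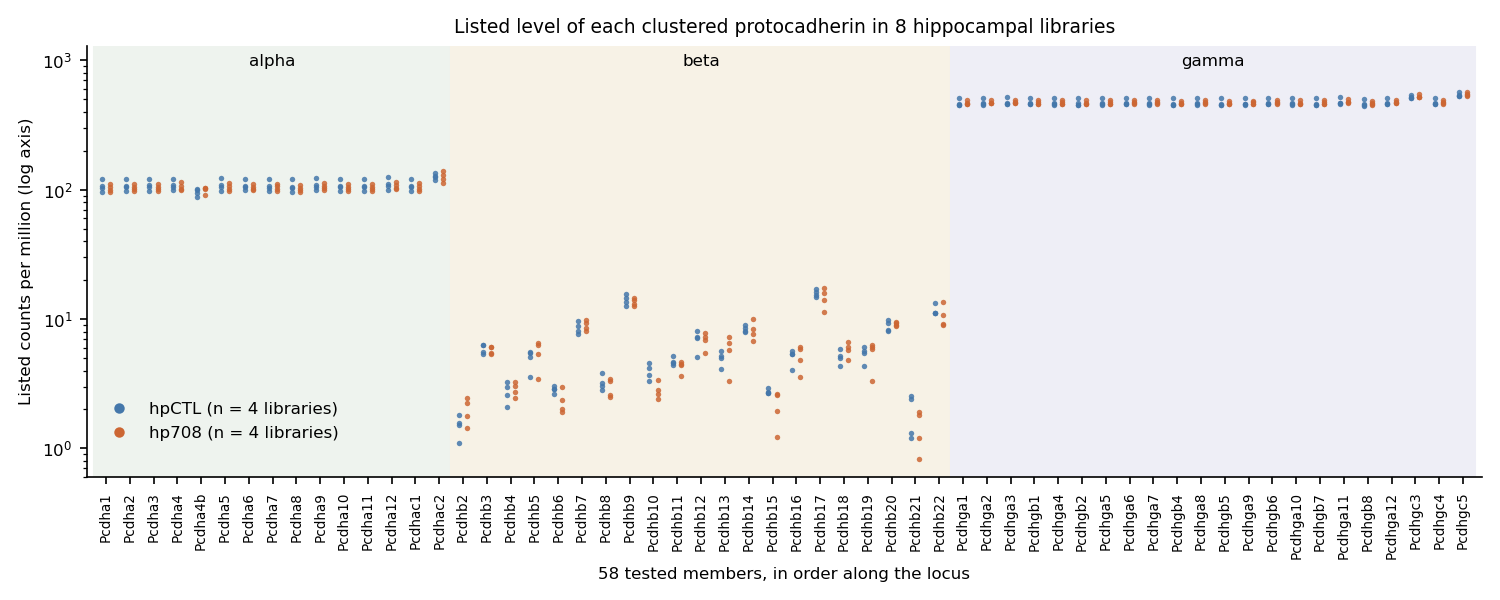
Listed CPM on a log axis for the 58 tested members, in their order along the locus, with 1 point per library and hpCTL and hp708 side by side. Alpha and gamma members form plateaus near 104 and 465 CPM, while beta members differ widely among themselves.

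Gene models that reach into the constant exons carried the same reads. Pcdha4b, a model that joins the variable exon of Pcdha4 (2410 bases) to 446 bases of the gamma constant exons, had 2093 to 2855 counts, whereas Pcdha4 had only 20 to 120 counts beyond Pcdha8. The count of Pcdha4b was 17.2 to 22.7 per 100 counts of Pcdhgb8, and its 446 bases are 21.1% of the gamma constant bases. It is therefore not read here as a level of an alpha gene. Of the antisense genes 2 were examined, as the strand setting of the counting is not stated. BC037039, antisense to part of Pcdhgc3, had 8 to 27 counts where Pcdhgc3 had at least 984 own reads, and Gm26672, antisense to Pcdhga10, had 26 to 53 counts.

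Shared reads were more abundant in the gamma than in the alpha cluster. Pcdha8 had 120, 102, 105 and 96.1 CPM (counts scaled to the size of the library) in hpCTL replicates 1 to 4 and 96.5, 99.6, 109 and 104 CPM in hp708 replicates 1 to 4. Pcdhgb8 had 506, 449, 458 and 446 CPM in hpCTL and 455, 468, 483 and 454 CPM in hp708. hpCTL replicate 1 was the highest library for both, and the groups overlapped. Per kilobase of constant exon the gamma level was 220 ± 9.56 CPM and the alpha level 36.4 ± 2.73 CPM (SD, n = 8), a ratio of 5.69 to 6.37 in the individual libraries.

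Reads beyond the lowest member, called own reads here, show how the members of a cluster differ. They come largely from variable exons, and any own reads of Pcdha8 or Pcdhgb8 are missing from every member of the cluster, since those of both genes are set to 0. The gamma models other than Pcdhgb8 also extend slightly further at the 3' end, so a small common part of the gamma own reads may come from there. Pcdhga4 and Pcdhgb1 also overlap outside the constant exons, as do Pcdhga8 and Pcdhgb4 over a shorter stretch, and reads there count for both genes of the pair. Summed over the alpha cluster there were 666 to 1474 own reads per library, and over the gamma cluster 5096 to 8456. The C-types Pcdhac1 and Pcdhac2 together held 49.1% to 55.6% of the alpha own reads, and Pcdhgc3, Pcdhgc4 and Pcdhgc5 held 48.5% to 54.5% of the gamma own reads.

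Pcdhac2 was the leading alpha member. Its own reads were 15, 22.7, 22.6 and 21.7 CPM in hpCTL and 23.9, 12.3, 30.6 and 25.2 CPM in hp708. It held 42.6% to 51.8% of the alpha own reads, and its level per length was 6.91 ± 1.82 CPM per kilobase (SD, n = 8). Pcdhac1, the other alpha C-type, reached 0.858 ± 0.197 CPM per kilobase, within the range of the alternate members. Of those, Pcdha12, the alternate member nearest to the C-types, was highest at 1.69 ± 0.247 CPM per kilobase, above Pcdha9 at 1.20 ± 0.358 in 8 of 8 libraries. At the other end Pcdha11 had 0.274 ± 0.0747 CPM per kilobase. Pcdha1, the first gene of the cluster, had 2 to 19 own reads and 0.190 ± 0.102 CPM per kilobase, and is named after its values were seen. Of the 13 pairs of neighbours in the order of alpha levels, 4 differed by more than the larger SD of the pair, namely Pcdhac2 over Pcdha12, Pcdha12 over Pcdha9, Pcdha10 over Pcdha11 and Pcdha1 over Pcdha8, the last by construction.

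In the gamma cluster a pair of C-types stood above the rest. Pcdhgc3 had 35.1, 61.1, 62.6 and 67.9 CPM of own reads in hpCTL and 68.3, 48.0, 68.0 and 63.2 CPM in hp708. Pcdhgc5 had 58.7, 76.8, 78.0 and 80.2 CPM in hpCTL and 81.2, 58.6, 88.4 and 98.6 CPM in hp708. hpCTL replicate 1 and hp708 replicate 2 were low for both genes, and the groups overlapped. Pcdhgc5 held 26.4% to 32.1% of the gamma own reads and Pcdhgc3 17.1% to 22.9%. Per kilobase Pcdhgc3 was at 17.1 ± 3.39 CPM and Pcdhgc5 at 13.7 ± 2.41 CPM, a difference within the SD of Pcdhgc3 though in the same direction in 7 of 8 libraries, and the longer Pcdhgc5 model includes a retained intron. Pcdhgc4 differed from the other gamma C-types, with 128 to 277 own reads, 1.79% to 3.28% of the gamma total and 2.05 ± 0.490 CPM per kilobase.

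Alternate gamma members lay below Pcdhgc3 and Pcdhgc5 in mean level. Of the gamma A genes Pcdhga11 was highest at 5.21 ± 0.886 CPM per kilobase and Pcdhga9 lowest at 1.35 ± 0.221. Of the gamma B genes Pcdhgb6 was highest at 3.30 ± 0.349 CPM per kilobase, and Pcdhgb8 is lowest by construction, followed by Pcdhgb5 at 0.624 ± 0.209. Of the 21 neighbouring pairs in the order of gamma levels 5 differed by more than the larger SD. Of these Pcdhgb5 over Pcdhgb8 did so by construction, and the widest step was from Pcdhgc5 to Pcdhga11, seen in 8 of 8 libraries.

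**Figure D2:**
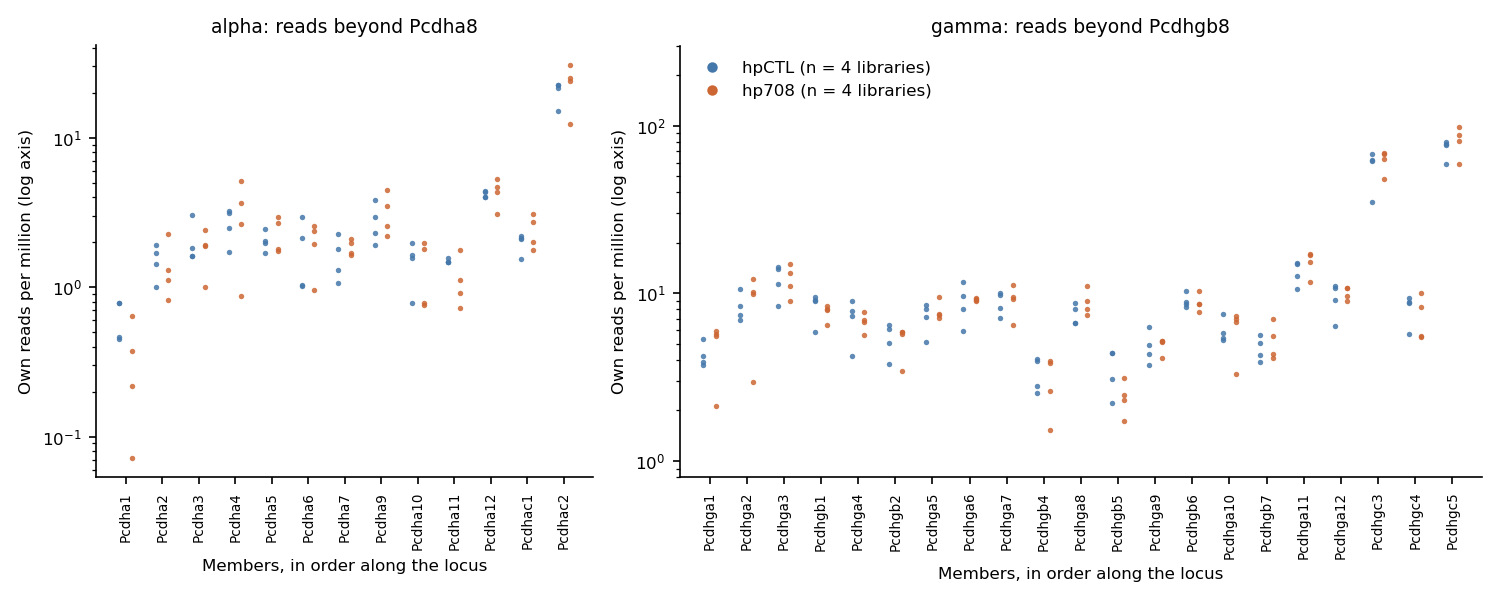
Own reads in CPM on a log axis for the alpha members beyond Pcdha8 and the gamma members beyond Pcdhgb8, with 1 point per library. Pcdhac2 is highest in the alpha cluster, and Pcdhgc3 and Pcdhgc5 are highest in the gamma cluster, in hpCTL and hp708 libraries alike.

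The beta genes have no constant exons, so their counts are largely their own, and only Pcdhb21 and Pcdhb22 share part of an exon. The most abundant per length was Pcdhb9, with 14.5, 13.5, 15.5 and 12.6 CPM in hpCTL and 12.5, 13.0, 14.0 and 14.6 CPM in hp708, or 3.69 ± 0.287 CPM per kilobase (SD, n = 8). Pcdhb17 followed at 3.28 ± 0.423 CPM per kilobase and is named for its place in the order. Pcdhb9 exceeded Pcdhb17 in 7 of 8 libraries, although their means differed by less than the larger SD, and Pcdhb17 exceeded the next gene, Pcdhb20 at 2.53 ± 0.159, in 7 of 8 libraries. Most other neighbours in the order lay within their spread, and 4 of 21 pairs differed by more than the larger SD. Toward the lower end were Pcdhb2 at 0.619 ± 0.155 and Pcdhb21 at 0.351 ± 0.131 CPM per kilobase. Pcdhb1, the first gene of the beta cluster, had 1, 0, 0 and 2 counts in hpCTL and 4, 1, 3 and 0 counts in hp708 and did not pass the filter. A library at 0 (hpCTL replicates 2 and 3 and hp708 replicate 4) allows up to 3 counts, or 0.123 to 0.131 CPM depending on its size, for counting error only.

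**Figure D3:**
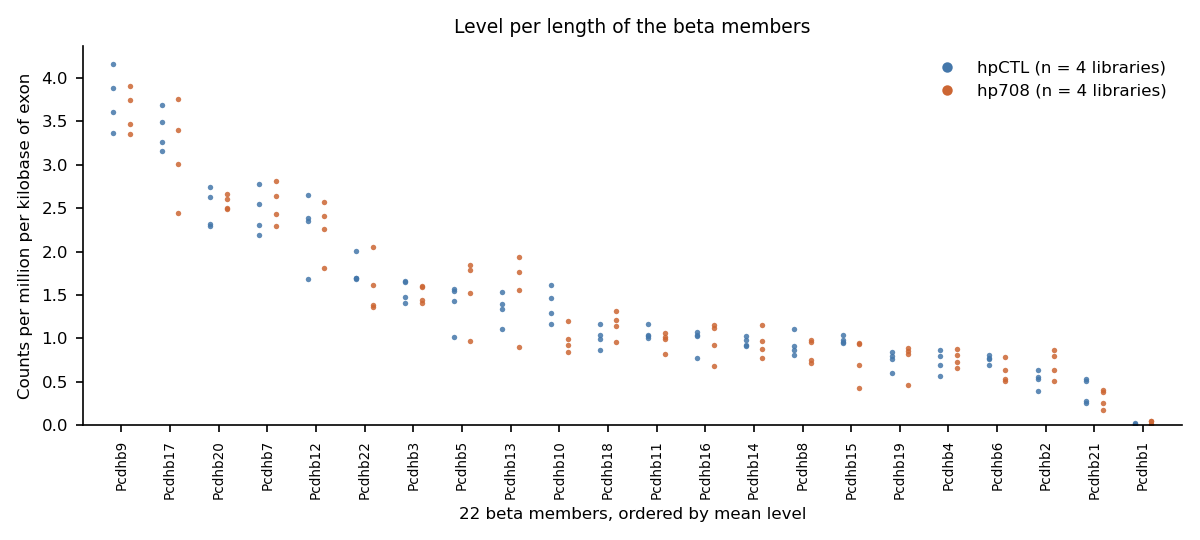
CPM per kilobase of exon for the 22 beta members, ordered by their mean over 8 libraries, with 1 point per library. Pcdhb9 and Pcdhb17 lie highest, Pcdhb1 lies near 0, and the groups overlap for 21 members, Pcdhb15 being the exception.

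The balance of own to shared reads set a pair of libraries apart, 1 in each group. The alpha cluster had 28, 46.5, 47.2 and 49.8 own reads per 100 shared reads in hpCTL and 47.7, 29.1, 57.6 and 52.5 in hp708. The gamma cluster had 40.6, 63.6, 64.2 and 66.3 own reads per 100 shared reads in hpCTL and 67.4, 47.4, 64.8 and 67.6 in hp708. hpCTL replicate 1 and hp708 replicate 2 were the lowest in both clusters, although the 14 alpha genes used here, Pcdha4b left out, share no exons with the gamma genes. Variable exons lie 5' of the constant exons, and 4 gene models besides the gamma genes reach into the 5' part of the gamma constant exons. The lncRNA model Gm38182, which covers 628 of their 2116 bases, had 24.2 and 28.1 counts per 100 shared reads in these libraries and 29.4 to 31.9 in the other 6. Its exons hold 1530 bases, so many lie outside the constant exons, and its count may include reads that also count for Pcdhgc5. Pcdha4b, which also reaches into the 5' part of the gamma constant exons, had 17.2 and 19.5 counts per 100 shared reads in these libraries and 20.9 to 22.7 in the other 6. Gm37388 and Gm38666, which cover only 91 bases each, did not set both libraries apart: they had 5.62 and 5.63 counts per 100 shared reads in hpCTL replicate 1, the lowest library for both, and 6.44 and 6.45 in hp708 replicate 2, above the 6.30 and 6.29 of hp708 replicate 3. The third surrogate variable was -0.49 and -0.68 in these libraries and positive in the other 6. In the beta cluster hp708 replicate 2 had the lowest summed level, 110 CPM against 124 to 138 CPM elsewhere, and was the lowest library for 9 of the 21 tested genes, whereas hpCTL replicate 1 was the lowest for 1. Marker levels of these libraries lay at opposite ends for neurons, with a mean log2 CPM of 9.15 in hpCTL replicate 1, the highest, and 8.88 in hp708 replicate 2, the lowest. hpCTL replicate 1 was also the highest library for CA1 (6.66) and interneuron markers (6.32) and the lowest for the choroid plexus (1.98). hp708 replicate 2 was the highest for oligodendrocyte (9.61), choroid plexus (6.65) and ependymal markers (3.47). The part of these differences in the balance of own to shared reads was not tested.

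**Figure D4:**
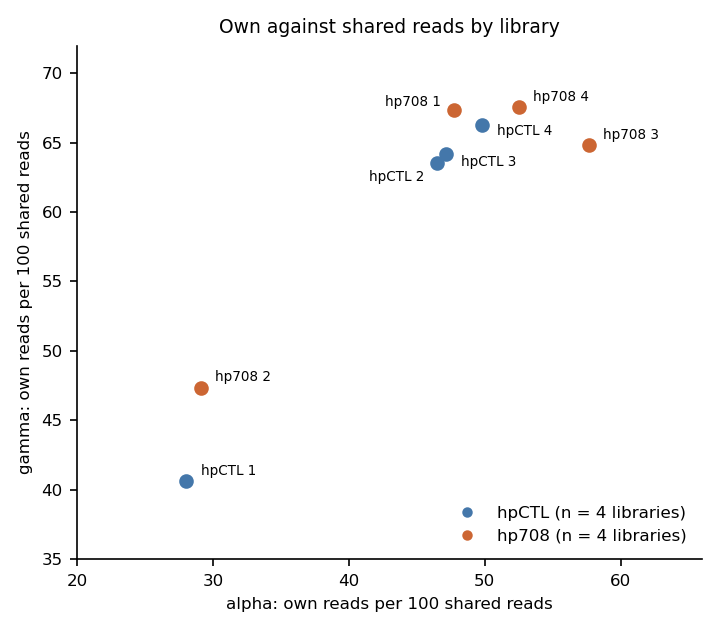
Own reads per 100 shared reads in the alpha cluster (horizontal axis) and the gamma cluster (vertical axis), 1 point per library. hpCTL replicate 1 and hp708 replicate 2 lie at 28 and 29.1 for alpha and at 40.6 and 47.4 for gamma, below the other 6 libraries on both axes.

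The comparison of hp708 with hpCTL asks which hippocampal transcripts change when miR-708-5p is overexpressed. No clustered protocadherin was called. With 3 surrogate variables edgeR's quasi-likelihood fit placed 0 of the 58 tested members below an FDR of 0.05, against 0.00580% of the 17252 tested genes, and DESeq2 with the same variables also placed 0 there, against 0.644% of the 14910 genes it gave an adjusted p, and 0 at an unadjusted p below 0.05, against 5.02% of all tested genes. At an unadjusted p below 0.05 edgeR found 1 member, Pcdhb10, against 7.70% of all tested genes (4.87% lower and 2.82% higher in hp708). The log2 fold change was above 0 in 34 members and below 0 in 24, with a median of 0.02 against -0.01 over all tested genes. The split was 28 above and 30 below without surrogate variables, 47 and 11 without hp708 replicate 1, and 48 and 10 with hpCTL replicate 1, hp708 replicate 2 and the surrogate variables all left out. These counts are dominated by the shared reads, which repeat 1 measurement for 14 alpha and 22 gamma genes.

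The shared exons had the most reads of the clusters. The log2 fold change of Pcdhgb8, which stands for the gamma constant exons with their seed matches, was 0.02 (standard error 0.04), and its interval of 2 standard errors ran from -0.06 to 0.10. That of Pcdha8, which stands for the alpha constant exons without matches, was -0.03 (standard error 0.04), with an interval from -0.12 to 0.05. Without surrogate variables the intervals were wider, from -0.13 to 0.14 for Pcdhgb8 and from -0.21 to 0.11 for Pcdha8. Group means of Pcdhgb8 were 465 ± 27.7 CPM in hpCTL and 465 ± 13.6 CPM in hp708 (SD, n = 4 each), and those of Pcdha8 were 106 ± 10.2 and 102 ± 5.41 CPM. Over the listed counts the gamma members had log2 fold changes of 0.01 to 0.04 and the alpha members, Pcdha4b left out, of -0.04 to 0.01. Pcdha11 was the lowest alpha member at -0.04, and Pcdha4b, which carries gamma reads, was at 0.07 (FDR 0.791 from edgeR). Without hp708 replicate 1 Pcdha4b was at 0.0079, Pcdha8 at 0.02 and Pcdhgb8 at 0.04, and with hpCTL replicate 1 and hp708 replicate 2 left out and no surrogate variables Pcdha8 was at 0.03 and Pcdhgb8 at 0.04, so the sign of the alpha value depended on these libraries. The difference between the clusters was not tested.

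Beta members varied more. Pcdhb10 had 4.61, 3.32, 3.69 and 4.17 CPM in hpCTL and 2.39, 2.83, 3.41 and 2.64 CPM in hp708. All hp708 libraries but replicate 3 were below every hpCTL library. By edgeR it was at -0.47 on the log2 scale (standard error 0.18, unadjusted p 0.0327, FDR 0.613), and this value lay between -0.58 and -0.32 in the fits with 3 surrogate variables that left out 1 library. Pcdhb2 had the highest value of the beta members, 0.29 (standard error 0.20, FDR 0.790 from edgeR), with 1.11, 1.57, 1.52 and 1.80 CPM in hpCTL and 1.45, 1.78, 2.26 and 2.44 CPM in hp708. Pcdhb2 was at 0.12 when hpCTL replicate 3 was left out, and it was at 0.53 when hp708 replicate 1 and the surrogate variables were. Pcdhb9 was at -0.07 (standard error 0.09). Only Pcdhb15, named for this reason, had groups that did not overlap, against 1.51% of all tested genes: it had 2.67 to 2.91 CPM in hpCTL and 1.22 to 2.64 CPM in hp708, with an FDR of 0.751 from edgeR. Of the 21 tested beta genes 10 were above 0 and 11 below, and the 3 genes with a seed match, Pcdhb11, Pcdhb19 and Pcdhb21, had log2 fold changes of -0.13, 0.05 and -0.41. The summed beta level was 129 ± 4.61 CPM in hpCTL and 126 ± 12.3 CPM in hp708.

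Own reads were then compared in place of the listed counts, with the reads of the constant exons kept once per cluster. This fit held 57 values of the clusters, called 0 at an FDR below 0.05 and found 6 at an unadjusted p below 0.05, against 7.59% of all genes in that fit. These were Pcdha1, Pcdhb10 and Pcdhgb5, lower in hp708, and Pcdhgc3, Pcdhgc5 and Pcdhga11, higher in hp708, of which Pcdha1 is named after its values were seen. For Pcdhgc5 edgeR put own reads at 0.14 on the log2 scale (standard error 0.06, unadjusted p 0.0462, FDR 0.648), for Pcdhgc3 0.14 (standard error 0.06) and for Pcdhga11 0.24 (standard error 0.10). Without surrogate variables their unadjusted p was 0.345, 0.524 and 0.243 in edgeR, and 1 of the 57 values, Pcdhb10, stayed below 0.05, against 1.81% of all genes. Without hp708 replicate 1, with 3 surrogate variables, 4 of the 57 values had such a p in edgeR, 0 higher and 4 lower in hp708, against 12.2% of all genes in that fit (6.78% lower), and the own reads of Pcdhgc3 were at -0.07, those of Pcdhga11 at 0.02 and those of Pcdhgc5 at 0.07.

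Pcdhgb5 had 2.21, 4.42, 4.39 and 3.08 CPM of own reads in hpCTL and 2.46, 1.74, 3.11 and 2.31 CPM in hp708, with overlapping groups. By edgeR it was at -0.54 on the log2 scale (standard error 0.21, FDR 0.617) on own reads and at 0.01 on listed counts, and between -0.80 and -0.55 in the own-read fits that left libraries out. Pcdha1 was at -1.27 (standard error 0.47, FDR 0.609 from edgeR) on 2 to 19 own reads, the lowest count being that of hp708 replicate 1. Without this library Pcdha1 was at -0.95 with 3 surrogate variables and at -0.58 without them, and over all libraries without surrogate variables at -0.93. Pcdhac2 was at 0.18 (standard error 0.08, FDR 0.671 from edgeR) on own reads and at 0.01 on listed counts, Pcdhac1 at 0.18 (standard error 0.18), Pcdhgc4 at -0.09 (standard error 0.16), Pcdha12 at 0.05 (standard error 0.14), Pcdhgb6 at 0.01 (standard error 0.12), Pcdhgb7 at 0.14 (standard error 0.23), Pcdhga4 at -0.10 (standard error 0.12) and Pcdhga9 at 0.02 (standard error 0.19). Without hp708 replicate 1, with 3 surrogate variables, own reads of Pcdhac2 were at -0.10, those of Pcdhgc4 at -0.55, those of Pcdhgb6 at -0.16, those of Pcdhga4 at -0.18 and those of Pcdhga9 at -0.15.

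**Figure D5:**
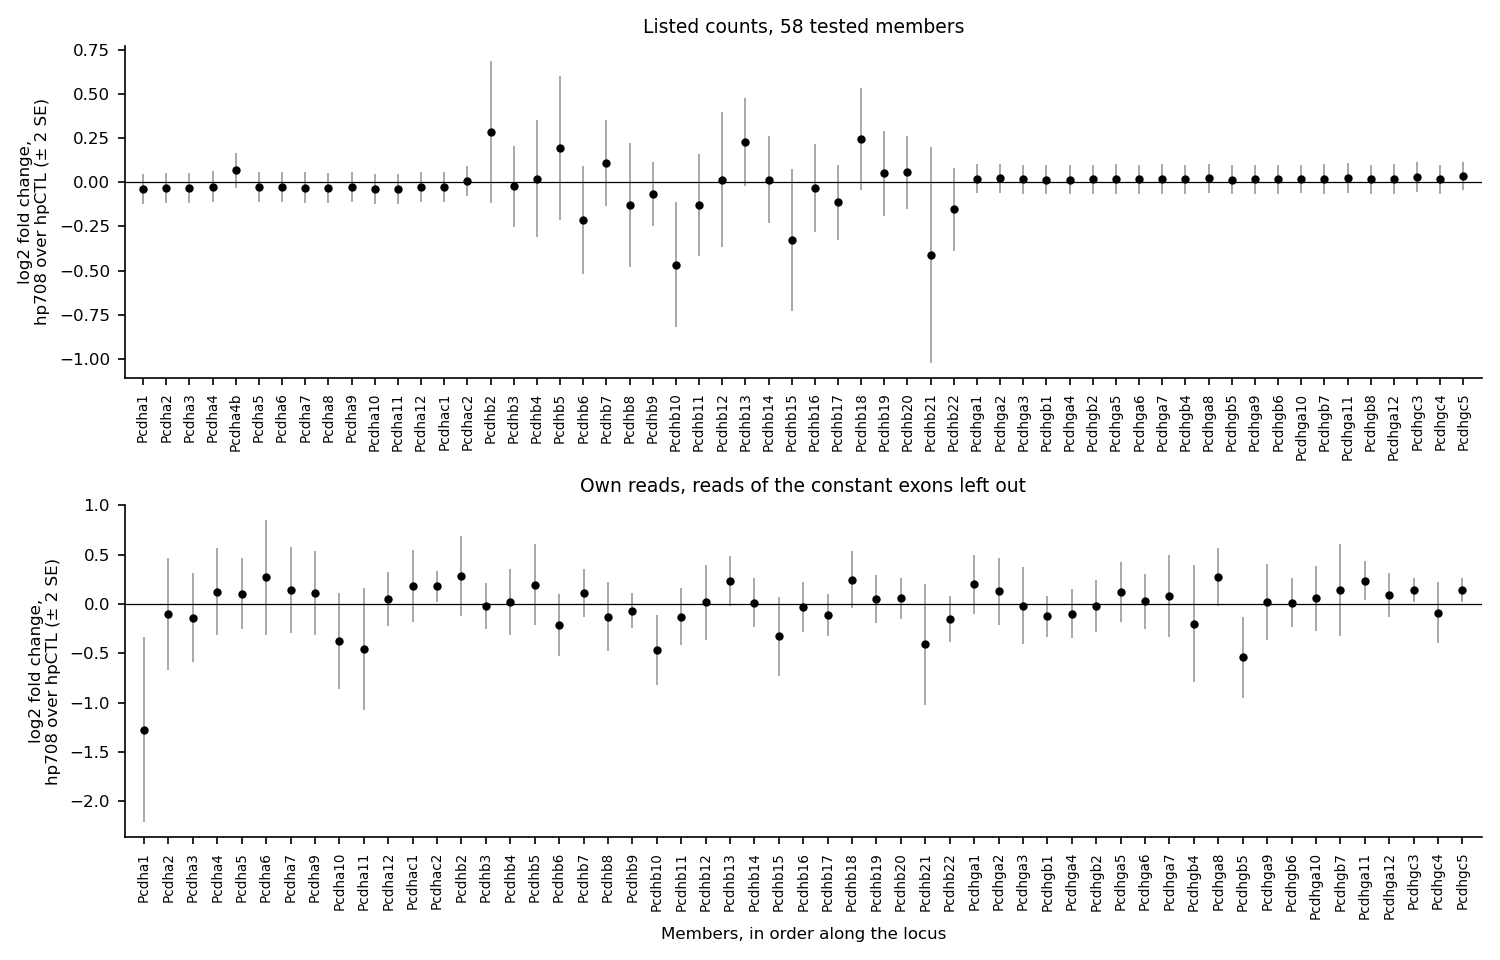
Log2 fold change of hp708 over hpCTL with bars of 2 standard errors, for the listed counts of 58 members (top) and for own reads (bottom), from edgeR with 3 surrogate variables. Listed alpha and gamma values lie between -0.04 and 0.07 with narrow bars, and own reads of the same genes spread from -1.27 to 0.27 with wide bars.

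Genes that regulate or accompany the clusters were examined as lists. Of 26 genes listed as regulators of promoter choice and silencing, all were tested, 0 were called at an FDR below 0.05 by edgeR and 2 had an unadjusted p below 0.05, or 7.69% against 7.70% of all tested genes. Their role in the clusters was not tested. Ctcf, the insulator protein, was at 71.5 ± 4.99 CPM in hpCTL and 74.3 ± 5.49 CPM in hp708, with a log2 fold change of 0.02 (standard error 0.07). Rad21, a cohesin subunit, was at -0.04 (standard error 0.05), Smchd1, a repressor of the clusters, at 0.05 (standard error 0.07), and Setdb1, a histone H3 lysine methyltransferase, at -0.02 (standard error 0.06). Dnmt3b, a DNA methyltransferase that methylates protocadherin promoters in early development, was low, at 0.939 ± 0.273 CPM in hpCTL and 0.666 ± 0.139 CPM in hp708, with a log2 fold change of -0.46 (standard error 0.34). Tet3, which oxidizes methylated cytosine, was at 0.23 and Znfx1, for which no role in the clusters is shown here, at -0.16 (FDR 0.511 and 0.573 from edgeR). Without hp708 replicate 1 Tet3 was at 0.26, Dnmt3b at -0.79 and Znfx1 at -0.0099, and without surrogate variables Znfx1 was at -0.04.

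Of 24 partners and effectors of the proteins, 6 had an unadjusted p below 0.05, 4 higher and 2 lower in hp708, which is 25.0% of the list against 7.70% of all tested genes (4.87% lower and 2.82% higher), and 0 were called at an FDR below 0.05 by edgeR. Without surrogate variables 0 of the genes of this list, and 0 of each other list, had such a p in edgeR, against 1.81% of all tested genes. The 3 of lowest p were Cyfip2, a subunit of the WAVE complex that builds branched actin and binds the alpha cytoplasmic domain, at 0.14, Ptk2b, the kinase PYK2 that the constant domains inhibit, at 0.12, and Prkca, a protein kinase C, at 0.19, all with an FDR of at least 0.563 from edgeR. Over the fits that left out 1 library, with or without surrogate variables, Cyfip2 ranged from 0.09 (without hp708 replicate 4) to 0.23 (without hp708 replicate 2), Ptk2b from 0.07 (without hp708 replicate 3) to 0.17 (without hp708 replicate 1) and Prkca from 0.10 (without hpCTL replicate 3) to 0.32 (without hp708 replicate 1). Cyfip2 had 766, 910, 948 and 874 CPM in hpCTL and 982, 797, 1005 and 1100 CPM in hp708, so hpCTL replicate 1 and hp708 replicate 2, which had few own reads in the clusters, were again the lowest. Prkca had 281 to 305 CPM in hpCTL and 294 to 426 CPM in hp708. Of 12 protocadherins outside the clusters 1 had an unadjusted p below 0.05, or 8.33% against 7.70% of all tested genes. This was Pcdh1, at 0.21 (standard error 0.06, FDR 0.50 from edgeR), with 275, 375, 362 and 368 CPM in hpCTL and 388, 328, 427 and 495 CPM in hp708. Over the same kind of fits Pcdh1 ranged from 0.13 without hp708 replicate 4 to 0.34 without hp708 replicate 2. Of 13 genes that flank or lie between the clusters 12 were tested. At an unadjusted p below 0.05 edgeR found 0 of them, against 7.70% of all tested genes, and 0 had an FDR below 0.05.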

How the data were processed

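The table that the authors deposited holds raw counts per gene for polyA-RNA libraries of whole hippocampus from 4 hpCTL and 4 hp708 mice. Alignment used STAR 2.7.8a, GRCm39 and GENCODE M26, and counting used featureCounts 1.6.4. The strand and overlap settings of the counting are not given in the sources used here. Samples were grouped by their labels and all 8 columns were matched by animal number, leaving 0 columns unused. Gene names, exons and 3'UTRs came from GENCODE vM39 on the same build, which named 39641 of the 40659 identifiers.

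Genes passing filterByExpr entered the quasi-likelihood test of edgeR 4.0.16 (R 4.3.3), with TMM scaling, Benjamini-Hochberg adjustment (FDR) and 3 surrogate variables, which svaseq of sva 3.50.0 estimated from the filtered counts. The methods of the study name the likelihood ratio test and a figure legend the quasi-likelihood model. The latter was the main test and the former an alternative, as was DESeq2 1.42.0. A standard error is the fold change, on the log2 scale, divided by the root of the F statistic. CPM values are counts scaled by the normalized library sizes. In the alpha and gamma clusters, own reads were the count of a member minus the count of the lowest member. Levels per length divided CPM of own reads by the exonic bases outside the constant exons, and CPM of beta members by all exonic bases. The own-read analysis, surrogate variables from CPM and the omission of a pair of libraries were chosen after seeing the data.

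The members and lists were chosen with earlier results of these data known. Named members were the C-types, the highest and lowest level and log2 fold change of each subfamily, up to 15 members with an unadjusted p below 0.05 and those failing the filter. From each other list up to 3 genes with the lowest p below 0.05 were named, and Ctcf, Rad21, Smchd1, Setdb1 and Dnmt3b. Other members were named after their values were seen. Hars was matched under its later symbol Hars1. Total counts were 22606824 to 28462428 per library. In simulated counts of 17043 genes the test with 3 surrogate variables recovered 8 of 59 genes changed by 0.5 on the log2 scale, 32 of 62 changed by 1 and 65 of 74 changed by 2, with 11 false calls. Without surrogate variables it recovered 14, 33 and 67, with 7 false calls. The simulated counts were drawn independently and held no hidden factor, so recovery with surrogate variables in the real libraries may differ. Own reads were not simulated. The labels name 8 separate animals. Replicate numbers did not pair the libraries.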

Additional observations from a re-analysis of the deposited data

Results flagged for a closer look

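In groups of 4 libraries, a library was singled out where its gap to the nearest of the others as a share of the range exceeded Dixon's 95% critical value for 4 values, which chance does in about 1 in 20 groups. Of 72 groups tested 8 stood out, where chance gives about 3.6. All 8 concern hpCTL replicate 1 or hp708 replicate 2. In hpCTL replicate 1 the summed own reads of the alpha cluster were 33.7 CPM, with replicates 2 to 4 at 47.6 to 49.6, and those of the gamma cluster were 205 CPM against 285 to 296. Own reads per 100 shared reads in that library were 28 against 46.5 to 49.8 in the alpha cluster and 40.6 against 63.6 to 66.3 in the gamma cluster. In hp708 replicate 2 the gamma own reads were 222 CPM, with replicates 1, 3 and 4 at 307 to 313, and 47.4 per 100 shared reads against 64.8 to 67.6. The listed level of Pcdhga11 was 516 CPM in hpCTL replicate 1 against 462 to 470, and that of Pcdh1 was 275 CPM against 362 to 375. These 8 values are not independent, since several use the same reads, and their cause was not tested.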

How the results depend on the processing

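No clustered protocadherin was called at an FDR below 0.05 under any of the 35 alternatives run. These covered the likelihood ratio test, DESeq2, other numbers of surrogate variables, other filters and scalings, own reads and the omission of libraries. Several called few genes of any kind. Without surrogate variables edgeR called 0 of 17252 genes on listed counts and 0 of 17251 on own reads, so 0 members says little there. DESeq2 with 3 surrogate variables called 0.644% of 14910 genes. With 3 surrogate variables and without hp708 replicate 1, edgeR called 56 of 17425 genes. Of the 35, 16 left out 1 library, with or without surrogate variables. In these the median log2 fold change of the members lay between -0.02 and 0.03. On own reads without hp708 replicate 1 and with 3 surrogate variables the median was -0.10. With listed counts over the annotated exon length in place of own reads over the bases outside the constant exons, which changes both the counts and the length, the order of levels kept a rank correlation of 0.688 with the main order in the alpha cluster and 0.311 in the gamma cluster. With a replicate block in place of the surrogate variables the median was 0.00 and 0 members had an FDR or an unadjusted p below 0.05 in edgeR. The share over all tested genes in that fit is not given here, so this count is not read as a result about the members. The replicate numbers do not pair the libraries, as the correlations of same-numbered deviations were 0.0088, -0.025, -0.041 and 0.018.

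The reversed signs concerned small values of the listed counts and most own-read fits. With 1 surrogate variable Pcdhac2 at -0.0068, with 2 Pcdhac2 at -0.0024, with DESeq2 and none Pcdhac2 at -0.0077 and with at least 10 counts in every library Pcdhac2 at -0.019 turned sign. The block gave Pcdhac2 at -0.017 and Pcdhgb5 at -0.00071. Without surrogate variables Pcdhac2 at -0.014, Pcdhgc4 at -0.0011 and Pcdhgb5 at -0.0020 turned, and with the likelihood ratio test, also without surrogate variables, Pcdhac2 at -0.014, Pcdhgc4 at -0.0011 and Pcdhgb5 at -0.0020. Omission of hpCTL replicate 1, hp708 replicate 2 and the surrogate variables together gave Pcdhac1 at 0.031, Pcdha12 at 0.032, Pcdha8 at 0.026, Pcdha11 at 0.022 and Smchd1 at -0.0038, and on own reads Pcdhac1 at 0.23, Pcdhgc4 at -0.18, Pcdha12 at 0.16, Pcdha8 at 0.027, Pcdhga9 at -0.096, Pcdhga4 at -0.16, Pcdhgb5 at -0.59 and Smchd1 at -0.0036. Own reads of all libraries gave Pcdhac1 at 0.18, Pcdhgc4 at -0.090, Pcdha12 at 0.051, Pcdhga4 at -0.099 and Pcdhgb5 at -0.54, and without surrogate variables Pcdhac1 at 0.27, Pcdhgc4 at -0.15, Pcdha12 at 0.044, Pcdhga4 at -0.061, Pcdhgb6 at -0.034 and Pcdhgb5 at -0.55. Own reads without hp708 replicate 1 gave Pcdhac1 at 0.26, Pcdhac2 at -0.096, Pcdhgc3 at -0.070, Pcdhgc4 at -0.55, Pcdha12 at 0.0022, Pcdha8 at 0.016, Pcdhb9 at 0.0055, Pcdhga9 at -0.15, Pcdhga4 at -0.18, Pcdhgb6 at -0.16 and Pcdhgb5 at -0.80, and without surrogate variables Pcdhac1 at 0.39, Pcdhgc4 at -0.34, Pcdha12 at 0.049, Pcdhga4 at -0.059, Pcdhgb6 at -0.12, Pcdhgb5 at -0.55 and Znfx1 at 0.042. The cause was not tested.

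Leaving out 1 library turned the sign in 18 values of named genes and kept it in 222 with 3 surrogate variables. Where the surrogate variables were dropped as well it turned 56 and kept 184. The genes with a turned sign ranged, over both kinds of fit, Pcdhac1 from -0.089 to 0.021, Pcdhac2 from -0.067 to 0.036, Pcdhgc3 from -0.0032 to 0.042, Pcdhgc4 from -0.019 to 0.043, Pcdha12 from -0.092 to 0.018, Pcdha8 from -0.097 to 0.018, Pcdha11 from -0.10 to 0.012, Pcdhb9 from -0.10 to 0.0047, Pcdhga11 from -0.0094 to 0.050, Pcdhga9 from -0.018 to 0.047, Pcdhga4 from -0.018 to 0.044, Pcdhgb6 from -0.018 to 0.047, Pcdhgb8 from -0.018 to 0.048, Pcdhgb7 from -0.015 to 0.049, Pcdhgb5 from -0.021 to 0.043, Ctcf from -0.067 to 0.10, Rad21 from -0.050 to 0.0027, Smchd1 from -0.031 to 0.15, Setdb1 from -0.076 to 0.0046 and Znfx1 from -0.27 to 0.042.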

Other observations

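The spread of beta members between animals of a group is given as a description. The chi-square statistic of their counts around the group means, per degree of freedom, had a median of 2.30 and ranged from 0.80 to 6.86, where counting error alone gives about 1, and the 5104 tested genes in the same range of mean counts had a median of 4.47. The statistic lay between 5.59 and 6.86 for 6 of the 21 tested beta members, Pcdhb5, Pcdhb13, Pcdhb17, Pcdhb19, Pcdhb21 and Pcdhb22. The position of a member along the locus was only loosely related to its level per length, as a description across genes that share libraries and are not replicates. The rank correlation was 0.15 over the 12 alternate alpha members, 0.23 over the 22 beta members and -0.18 over the 19 gamma A and gamma B members.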
